A study of Mus musculus with 4 samples.

Results

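Most CpG cytosines of a mammalian genome are either almost free of methylation or almost fully methylated, and those described here lay between these states in every tumor measured. They were chosen by their measured methylation: an autosomal CpG cytosine was taken as intermediate when at least 20 reads covered it and 35 to 65% of them were methylated in each of 4 tumors. Neighbouring intermediate cytosines within 200 bp were joined, and regions with at least 3 of them were kept. Of 1058541 autosomal cytosines with 20 reads in every tumor, 7623 (0.720%) were intermediate. Of these, 1696 fell into 388 regions, and 5927 had too few such neighbours. The cytosines that were not intermediate, joined in the same way, gave 70346 other regions. Because the levels chose the regions, they are given as a description, and the counts of tests between the lines given further on are limited by that choice.

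The assay was RRBS, reduced representation bisulfite sequencing, in which CpG-dense fragments are sequenced and each CpG cytosine is scored on its own strand as methylated or not. The tumors were of 344SQ, a lung adenocarcinoma line of mice with the p53R172HΔg/+ and KrasLA1/+ alleles: 2 tumors of the parental line 344SQP and 2 of 344SQR, its derivative with resistance to anti-PD1. The cells were injected under the skin of the leg of syngeneic 129Sv/Ev female mice aged 12 to 16 weeks. All 4 tumors were treated alike with anti-PD1 (10 mg/kg into the peritoneum, 4 doses from day 4) and taken 24 h after the last dose. The tumors were analysed whole, so the DNA held that of host cells as well. Neither the labels nor the methods give the share of tumor cells. Summed coverage over CpG cytosines was 116794455 and 138331886 calls in 344SQP tumors 1 and 2, and 160548303 and 174689402 calls in 344SQR tumors 1 and 2. The median coverage of a qualified autosomal cytosine was 99, 113, 131 and 134 reads, in the same order. Coordinates are of the mouse build GRCm38.

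Genomic imprinting is the classical setting of an intermediate level. At an imprinting control region the allele of a single parent carries methylation laid down in the egg or sperm, and the zinc finger protein ZFP57 binds the methylated allele and keeps it through early development. Other known settings of intermediate levels are repeated sequences of which some copies are methylated, such as ribosomal DNA, and CpG islands that gain methylation in part of the cells of a tumor. In bulk DNA, methylation of 1 allele in every cell and of both alleles in a share of the cells cannot be told apart.

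The regions were short. They held 3 cytosines in 235 cases, 4 to 9 in 138 and 10 or more in 15, and their length ran from 3 to 963 bp with a median of 92 bp. A further 750 joined pairs of 2 intermediate cytosines lay just outside the rule. At the edges of the band, 1890 intermediate cytosines had their lowest tumor between 35 and 37%, and 2267 cytosines missed the band with a lowest tumor between 33 and 35%. At the upper edge, 1644 had their highest tumor between 63 and 65%, and 2091 missed it between 65 and 67%. In 63 regions at least 80% of all qualified cytosines in the span were intermediate, which is called a plateau here, and in 51 all of them were. In the 325 regions without a plateau, less than 80% were. Levels of regions are given for their intermediate cytosines alone, unless stated otherwise. Among 735 cytosines of the regions whose partner on the other strand also qualified, the partner was intermediate in 350 (47.6%).

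The regions lay on all 19 autosomes. Chromosome 7 held the most, 50 regions or 1.03% of all its regions, followed by chromosome 17 with 38 (1.1%), chromosome 2 with 31 (0.566%), chromosome 6 with 29 (0.856%) and chromosome 3 with 28 (0.877%). Chromosome 16 held the fewest, with 3 (0.144%), and chromosome 9 held 8 (0.212%). Of the 50 regions of chromosome 7, 11 lay in imprinted loci. Of the 38 regions of chromosome 17, 8 lay within 10 kb of Rn18s-rs5, a ribosomal RNA pseudogene, at the high coverage described below. They held 94 of the 230 intermediate cytosines in the regions of that chromosome. When regions within 10 kb were counted once, 362 separate places were left.

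Genes were overlapped by 326 regions and not by 62. Promoters (1000 bp upstream to 500 bp downstream of a transcription start site) held 185 regions (47.7%), exons outside promoters 96 (24.7%), introns 64 (16.5%) and intergenic sequence 43 (11.1%). The intermediate regions thus sat less often in promoters than regions under 20% methylation in every tumor (78.0% of 17521) and more often than regions over 80% in every tumor (7.50% of 19758). In CpG content they were closer to the unmethylated regions. A 300 bp window centred on the region held a median of 24 CpGs, against 26 in the regions under 20%, 9 in the regions over 80% and 10 in all other regions. The median GC content of the window was 66%, against 66.7%, 54.7% and 56.3%. Repeat-masked sequence filled at least 50% of the window in 3 of the 388 regions (0.773%), against 0.228% of the regions under 20%, 13.6% of those over 80% and 9.69% of all other regions. The rule needs 3 neighbouring cytosines of a class that made up 0.720% of those qualified. That is met more easily where CpGs are dense. These contrasts in position and sequence are therefore a description, and nothing is concluded from them.

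Imprinted loci held 21 of the 388 regions, and 367 (94.6%) lay outside them. A region was counted inside when it lay within 20 kb of a gene of 23 loci that hold a germline differentially methylated region (85 genes). A region on chromosome 12 was counted outside although its nearest gene was Dlk1, which is listed in the Meg3 locus. With a reach of 100 kb, 366 regions lay outside. Within 20 kb, the 23 loci held 0.453% of the other regions, 0.377% of those under 20% and 0.390% of those over 80%, against 5.41% of the intermediate regions. The 21 regions lay in 11 of the 23 loci: 5 in the Kcnq1ot1 locus, 4 in that of Snrpn, 3 in that of Gnas, 2 in that of Igf2r, and 1 each in those of Plagl1, Peg13, Inpp5f, H19, Grb10, Meg3 and Impact. Not all were near the gene that marks the control region. Of those of Kcnq1ot1 1 was, of those of Snrpn 2 were, and of Meg3 0. In the other loci with a region, all were.

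The region with the most cytosines of all was at the promoter of Plagl1, which encodes a zinc finger transcription factor that slows cell growth and is expressed from the paternal allele. It held 38 intermediate cytosines of 51 qualified in chr10:13090634-13091127. Its mean methylation was 52.0 and 50.5% in 344SQP tumors 1 and 2 and 53.0 and 53.1% in 344SQR tumors 1 and 2. All 4 tumors lay within 2.64 points of each other, with coverage of single cytosines from 49 to 260 reads.

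Igf2r, the receptor that clears the growth factor IGF2, carried the region of second size, 35 cytosines at its promoter (chr17:12769475-12769836). Its levels were 42.7 and 52.3% in 344SQP and 46.1 and 51.8% in 344SQR, so that tumor 2 was higher in both lines. Inside the same gene, at the promoter of Airn, the noncoding RNA that silences Igf2r on the paternal allele, 7 cytosines formed a plateau (chr17:12741590-12741750, named after its values were seen). There the levels were 54.5 and 53.2% in 344SQP and 48.1 and 47.6% in 344SQR, and the lines did not overlap. Peg13, a noncoding RNA gene within an intron of Trappc9, had 15 cytosines in chr15:72809700-72810087. Its levels were 44.0 and 47.0% in 344SQP and 54.8 and 59.7% in 344SQR, with both 344SQR tumors above both 344SQP tumors.

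At Gnas, which encodes the alpha subunit of the stimulatory G protein and has several imprinted promoters, the region with the most cytosines had 8 of them in an exon (chr2:174299898-174300082). It stood at 56.0 and 47.1% in 344SQP and 46.7 and 48.0% in 344SQR, so that 344SQP tumor 1 was apart from the rest. Kcnq1ot1, the noncoding RNA that silences a cluster of growth genes, had 7 cytosines in chr7:143295375-143295443 at 54.2 and 38.4% in 344SQP and 43.7 and 56.0% in 344SQR. The tumors of both lines were spread over most of the band. In its cluster, the cell cycle inhibitor Cdkn1c was the nearest gene of 3 further regions. The 6 cytosines at the promoter of Inpp5f, an inositol phosphatase gene with an imprinted transcript, stood at 54.0 and 51.4% in 344SQP and 47.9 and 48.4% in 344SQR.

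The remaining imprinted regions were smaller. Just upstream of H19, the maternally expressed noncoding RNA, 4 cytosines gave 50.4 and 44.6% in 344SQP and 52.4 and 45.7% in 344SQR. Tumor 1 was higher in both lines there. At Snrpn and Snurf, the paternally expressed genes of the Prader-Willi region, 3 cytosines at chr7:60004853-60004862 gave 45.2 and 60% in 344SQP and 53.8 and 36.2% in 344SQR. Their coverage was low, from 25 to 58 reads. All 4 regions of the locus had 3 cytosines, and this one came first by position. The next, at a promoter of Snrpn and named after its values were seen, had 115 to 164 reads and stood at 55.0 and 60.3% in 344SQP and 45.7 and 46.6% in 344SQR, with both 344SQR tumors lower. Grb10, an adaptor that restrains insulin signalling, had 3 intermediate cytosines of 28 qualified in the span. They stood at 38.7 and 59.6% in 344SQP and 37.6 and 52.9% in 344SQR, with tumor 2 higher in both lines. An intron of Begain in the Meg3 locus (5 cytosines of 63 qualified) gave 43.0 and 55.1% in 344SQP and 41.1 and 54.0% in 344SQR. An intron of Impact (3 cytosines of 4 qualified) gave 42.9 and 55.7% in 344SQP and 42.0 and 53.6% in 344SQR. Tumor 2 was the higher one of each line in both.

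No intermediate region was found in 12 of the 23 loci. The promoter of the gene that marks the control region had no qualified cytosine in 2 of them, and in 0 of the other 10 was its mean within the band in all 4 tumors. Of the loci with a region, the same mean was within the band in all 4 tumors at H19, Airn, Peg13, Plagl1 and Snrpn. It was not at Gnas, Grb10, Inpp5f and Meg3, and those of Impact and Kcnq1ot1 had no qualified cytosine. The examples below, of loci without a region, were chosen after their values were seen. The promoter of Nap1l5 stood at 82.7 and 87.8% in 344SQP and 79.2 and 92.9% in 344SQR, and that of Zrsr1 at 77.5 and 85.8% in 344SQP and 80.5 and 92.2% in 344SQR. Mest stood at 79.6 and 80.8% in 344SQP and 78.3 and 85.3% in 344SQR. All 3 were high in every tumor. Others differed between tumors: Rasgrf1 stood at 24.2 and 61.4% in 344SQP and 40.4 and 69.4% in 344SQR, with tumor 2 higher in both lines. Peg10 stood at 53.4 and 57.0% in 344SQP and 43.2 and 33.3% in 344SQR, with both 344SQR tumors lower.

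Outside imprinted loci, genes of developmental transcription factors were the class of the lists examined that held the most regions. Within 1000 bp of the 112 non-Hox homeobox, Pax and T-box genes of a list that does not hold the whole class lay 16 regions (4.12% of the 388), against 0.8% of the other regions and 0.970% of the regions under 20%. Hox clusters held 8 (2.06%, against 0.202% and 0.274%) and Sox, Fox, Gata and bHLH genes held 9 (2.32%, against 0.562% and 0.856%). Such genes pattern the embryo, and in tissues where they are silent their CpG islands are bound by Polycomb proteins. Zinc finger genes held 4 regions (1.03%, against 1.18% of the other regions), and clustered protocadherin genes held 2 on chromosome 18 (0.515%, against 0.0753%). No region lay near the olfactory and vomeronasal receptor, histone, germline, leukocyte, stroma or lung epithelium genes of the lists, which also held few of the other regions (0.112, 0.0697, 0.0640, 0.0370, 0.0384 and 0.0469% in that order).

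The developmental genes, named here after their values were seen, mostly shared an order of the tumors. Among the Hox regions, that of Hoxd8 had 6 cytosines in chr2:74705218-74705518 at 42.7 and 55.6% in 344SQP and 40.5 and 55.8% in 344SQR. Pitx1, which specifies the hindlimb, had 6 at 45.4 and 53.2% in 344SQP and 39.9 and 57.8% in 344SQR. In both regions tumor 2 of each line was above tumor 1 of both lines. Over the 33 regions of the 3 lists, tumor 2 was above tumor 1 in both lines in 31 (93.9%), against 71.4% of the 388 regions and 24.3% of all 70734. The order is read from the levels that chose the regions, and it depended on the band, as given below. Nothing is therefore concluded from the gap to the 388 or from that to all 70734. The averages of the 33 regions were 43.8 and 53.9% in 344SQP and 44.1 and 53.4% in 344SQR. The 2 exceptions were a region of Hoxa3 and an exon of Gata2, a regulator of blood stem cells. Another exon of Gata2 followed the order at 39.9 and 45.7% in 344SQP and 54.7 and 58.8% in 344SQR, with both 344SQR tumors above both 344SQP tumors. Gbx2, a homeobox gene not on the lists that is described below, did not follow the order, and tumor 1 was higher in both lines there.

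A further group had far more reads than the median qualified cytosine. Coverage relative to the median qualified cytosine of each tumor was over 3 in 21 regions (5.41%), none of them imprinted, against 0.165% of the other regions. It was over 10 in 11 regions, of which 8 lay within 10 kb of Rn18s-rs5, an 18S ribosomal RNA pseudogene of the RefSeq annotation on chromosome 17, and 2 overlapped it. In the cell ribosomal DNA is a tandem array of many copies. The 8 regions held 94 cytosines between chr17:39843014 and chr17:39848565, at 10.2 to 137 times the median coverage. The longest of all 388 regions was among them, 963 bp in Gm26917 (chr17:39845277-39846239). Its 34 intermediate cytosines, of 189 qualified in the span, stood at 41.3 and 55.9% in 344SQP and 41.4 and 57.5% in 344SQR. The 19 cytosines of chr17:39844548-39844779 stood at 40.7 and 54.0% in 344SQP and 39.1 and 59.3% in 344SQR. Those of chr17:39843014-39843464 (14 cytosines) stood at 39.3 and 55.5% in 344SQP and 40.1 and 56.1% in 344SQR. Those of chr17:39848244-39848565 (13 cytosines) stood at 42.0 and 51.5% in 344SQP and 40.6 and 57.1% in 344SQR. The 5 cytosines of chr17:39847872-39847925, at 137 times the median coverage, stood at 36.8 and 51.7% in 344SQP and 40.6 and 56.6% in 344SQR. Across the 8 regions, the levels were 36.8 to 47.3% in 344SQP tumor 1, 51.5 to 57.9% in 344SQP tumor 2, 37.4 to 45.5% in 344SQR tumor 1 and 51.0 to 62.3% in 344SQR tumor 2, so that tumors 1 and 2 of a line did not overlap.

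The other 3 of the 11 regions were an intergenic stretch near Gm11668 on chromosome 11, an intron of Jarid2 and an intron of Cdk8. The region near Gm11668 had the highest coverage of all, 163 times the median, and stood at 40.5 and 56.2% in 344SQP and 38.6 and 58.9% in 344SQR (12 cytosines, chr11:109011699-109011984). The Jarid2 region, at 132 times the median, stood at 39.9 and 54.6% in 344SQP and 39.3 and 56.7% in 344SQR (4 cytosines, chr13:44869632-44869649). A search of the genome found stretches at least 90% identical to it on 9 chromosomes, and the best-scoring one, on chromosome 12, was 96.0% identical. Tumor 2 was higher in both lines in both regions, as in those of chromosome 17. The search found stretches at least 90% identical for 4 of the 11 regions, Jarid2 among them. Of chromosome 17, chr17:39843014-39843464 matched chromosome 11 with 92.2% identity over 412 bp, and chr17:39847872-39847925 matched chromosome 1 with 96% over 100 bp. Reads of copies that the assembly does not hold may also be placed at the regions near Gm11668 and Rn18s-rs5, so their levels are not read as those of single loci. This was not tested.

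Some regions were islands of intermediate methylation inside unmethylated promoters. Qualified cytosines within 1000 bp averaged under 20% on both sides in 11 regions and under 5% on both sides in 7, and these 7 lay wholly within exons, as did 41.0% of all 388. The promoter region of Gpi1, which encodes the glycolytic enzyme glucose-6-phosphate isomerase, was the flattest of all 388 across tumors. Its 10 intermediate cytosines stood at 45.4 and 44.8% in 344SQP and 46.3 and 45.8% in 344SQR, while the flanks averaged 0.922 and 1.02%. The span held 13 qualified cytosines, and over all 13 the average of the 4 tumors was 35.7%, against 45.6% for the 10. This region lay in coding sequence (chr7:34230112-34230198) and had 2.71 times the median coverage. Vcpkmt, a gene of a lysine methyltransferase, had 18 cytosines in coding sequence (chr12:69582819-69582967) at 45.5 and 54.4% in 344SQP and 42.1 and 47.3% in 344SQR. Its left flank averaged 1.27%, its right flank had no qualified cytosine, and its coverage was 2.62 times the median. Cyb5b, Mrpl19, Odc1, Asap2, Ppp1r2 and 1110004F10Rik were the other 6 regions with both flanks under 5%, named after their values were seen, and their coverage was 1.91 to 3.30 times the median. Ppp1r2, which encodes an inhibitor of protein phosphatase 1, stood at 53.1 and 53.2% in 344SQP and 51.1 and 47.6% in 344SQR with 9 cytosines.

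Near-identical copies elsewhere in the genome were counted because reads of copies can be placed together. A copy outside masked repeats with at least 90% identity over at least 50 bp was found for 26 regions (6.70%), against 4.02% of the regions under 20% and 4.17% of those over 80%. Among the 32 regions with over 2 times the median coverage, 13 (40.6%) had a copy, and among the other 356 regions 13 (3.65%) did. The Rrs1 region, 12 cytosines in a ribosome assembly factor gene at 4.11 times the median coverage, matched the processed pseudogene Gm21168 with 94.6% identity over 259 bp. It stood at 39.5 and 57.5% in 344SQP and 40.8 and 57.0% in 344SQR. The region within Rere, at the start site of Gm13092, also named after its values were seen, with 8 cytosines at 3.20 times the median coverage, matched a stretch of chromosome 10 with 96.8% identity over 94 bp and stood at 47.3 and 50.2% in 344SQP and 48.3 and 49.1% in 344SQR. No copy passed these thresholds for Gpi1 or Vcpkmt. Of the other regions with low flanks named above, Ppp1r2 had copies on 3 chromosomes (best 98% identical), and 1110004F10Rik, Odc1 and Asap2 had copies of 96.9, 95 and 91% identity. The part of read placement in these levels was not tested. Without the 21 regions over 3 times the median coverage, 367 regions were left, 346 of them outside imprinted loci.

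Regions with many cytosines and usual coverage outside imprinted loci were found at genes of several kinds. Dchs1, a giant cadherin of planar cell polarity, had 16 cytosines in chr7:105762434-105762770 at 52.3 and 55.0% in 344SQP and 48.5 and 44.4% in 344SQR, with both 344SQR tumors lower. Its relative Dchs2 had 9 at 42.0 and 60% in 344SQP and 41.5 and 56.8% in 344SQR. Otud1, a deubiquitinase gene, had 14 in its exon at 45.6 and 57.3% in 344SQP and 39.0 and 51.8% in 344SQR. Ugt8a, the galactosyltransferase of myelin lipid synthesis, had 12 at 39.9 and 54.8% in 344SQP and 42.4 and 58.4% in 344SQR. In Dchs2, Otud1 and Ugt8a tumor 2 was the higher one of each line. The promoter of 3300002P13Rik had 11 cytosines at 41.6 and 54.7% in 344SQP and 42.2 and 56.1% in 344SQR, again higher in tumor 2. The order was opposite at Zfp703, a zinc finger gene (9 cytosines), with 58.0 and 45.5% in 344SQP and 53.8 and 41.8% in 344SQR. An exon of Mn1, a transcriptional coregulator gene, was nearly level at 50.7 and 48.4% in 344SQP and 45.6 and 48.9% in 344SQR (9 cytosines). These cytosines were part of those qualified in each span: 16 of 38 in Dchs1, 9 of 33 in Dchs2 and 14 of 27 in Otud1. They were 12 of 87 in Ugt8a, 11 of 27 in 3300002P13Rik, 9 of 27 in Zfp703 and 9 of 39 in Mn1.

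Over all 388 regions, the average level was 45.7 and 53.3% in 344SQP tumors 1 and 2 and 45.2 and 51.9% in 344SQR tumors 1 and 2. Tumor 2 was above tumor 1 in both lines in 277 regions (71.4%) and below it in both lines in 43. This order depended on the band. It held in 19 of 45 regions with a band of 40 to 60% and in 1412 of 1853 with 30 to 70%. In imprinted loci the averages were 47.8 and 52.4% in 344SQP and 45.8 and 50.2% in 344SQR, with tumor 2 higher in both lines in 12 of 21 regions. Outside them, this held for 265 of 367 regions (72.2%), and for the 11 regions over 10 times the median coverage it held in all 11. The gap between the highest and the lowest tumor had a median of 14.9 points and ran from 1.49 to 26.7 points, within the 30 points that the band allows, and was at most 5 points in 15 regions. Calls on the Y chromosome also divided the tumors by number, higher in tumor 1, with 413 and 257 calls per 1000000 autosomal calls in 344SQP and 563 and 180 in 344SQR. Calls of the X chromosome were 1.62 and 1.30% of autosomal calls in 344SQP and 1.54 and 1.19% in 344SQR. The part of the cell makeup of the tumors in these levels was not tested.

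The line averages were 49.5% ± 5.41 (SD, n = 2) for 344SQP and 48.5% ± 4.78 (SD, n = 2) for 344SQR, a difference of -0.943 points, which was less than the SD of either line. By region, 344SQR was lower in 225 and higher in 163, with a median difference of -0.925 points. Over all 70734 regions the median difference was -3 points and 344SQR was lower in 77.0%. The 2 tumors of each line did not overlap in 75 of the 388 regions (19.3%), against 50.8% of all regions, and 344SQR was the lower line in 51 of the 75. Since the band bounds every tumor, nothing is read from the size of these differences or from these counts. With 2 tumors in each line, an exact permutation test cannot go below p = 0.33.

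By a likelihood ratio test of each cytosine, which takes no spread between tumors into account, combined over each region by Stouffer z scores, 139 of the 388 regions were called (51 higher and 88 lower in 344SQR, FDR under 0.05), 12 of them in imprinted loci. It called 60.3% of all regions, 7.99% as higher and 52.3% as lower. edgeR's quasi-likelihood test, which does take the spread into account, called 0 of the 388 regions, and 0 had an unadjusted p under 0.05. It called 0.12% of all 70734 regions, and 17.0% of them had an unadjusted p under 0.05. With the tumor number as a block it called 1 of the 388 and 15450 of the 70734. The band was part of the choice of regions, so these counts say nothing about them against the rest.

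Among regions with at least 5 cytosines, the 3 with the largest differences upward were Bves, Peg13 and Gbx2. Bves, which encodes a membrane protein of striated muscle and epithelia, stood at 43.5 and 46.3% in 344SQP and 52.8 and 61.6% in 344SQR, 12.3 points higher on average in 344SQR, with no overlap. Peg13 was 11.8 points higher. Gbx2, a homeobox gene of the midbrain boundary, stood at 52.8 and 41.7% in 344SQP and 59.8 and 50.2% in 344SQR, 7.77 points higher, with overlap between the lines. The 3 downward were Dbx2, Dchs1 and Zfp423. Dbx2, a homeobox gene of the spinal cord, stood at 43.9 and 58.5% in 344SQP and 39.1 and 47.3% in 344SQR and fell by 8.03 points between the line means, with overlap. Its 5 intermediate cytosines were among 31 qualified in the span. Over all 31 the average of the 4 tumors was 34.5%, against 47.2% for the 5. An intron of Zfp423, a zinc finger gene of neural and fat cell precursors, stood at 55.5 and 50.9% in 344SQP and 53.1 and 40.3% in 344SQR, a difference of -6.49 points, also with overlap.

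The level of a tumor that took no part in the choice can be set beside that of the others. When the band was applied to 3 tumors, the cytosines chosen were also within it in the tumor left out in 46.6% (344SQP tumor 1), 56.9% (344SQP tumor 2), 62.6% (344SQR tumor 1) and 32.7% (344SQR tumor 2) of cases. Over all qualified cytosines the shares in the band in these tumors were 8.20, 8.94, 11.0 and 9.34%. Joined into regions, those of imprinted loci had a mean within the band in the left-out tumor in 22 of 27, 22 of 27, 25 of 29 and 19 of 37 cases, in the same order. Outside imprinted loci the shares were 46.1, 61.4, 60.5 and 34.9%. Of the regions chosen without 344SQP tumor 1, 567 lay below the band in it and 42 above, and without 344SQR tumor 1, 303 lay below and 31 above. The other tumors went the other way, with 21 below and 338 above in 344SQP tumor 2, and 329 below and 724 above in 344SQR tumor 2.

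The band was also applied to 1 line alone. Both tumors of the other line then had to lie within it, so these shares cannot be set beside those for a single left-out tumor. Of 36423 cytosines within the band in both 344SQP tumors, 20.9% were within it in both 344SQR tumors, 17.2% were below it in both and 3.85% above it in both. Of 36219 chosen in both 344SQR tumors, 21% were within it in both 344SQP tumors, 6.16% below and 29.4% above. Over all qualified cytosines, 3.42% were within the band in both 344SQR tumors and 3.44% in both 344SQP tumors.

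Sequence was compared in 300 bp windows centred on each region. The 6 letters TGCCGC, which ZFP57 binds when the CpG in them is methylated, were searched on both strands. They were present in 13 of the 21 imprinted windows (61.9%) and in 98 of the 367 windows outside imprinted loci (26.7%). The share was 13.2% over all other regions, 27.1% over the CpG-dense regions under 20% and 9.93% over those over 80%. At least 2 matches were found in 28.6% of the imprinted windows, 4.63% of the windows outside, 1.80% of the other regions and 5.15% of the regions under 20%. A match is a description of the sequence, not of binding. Below are the windows of Peg13 (chr15:72809743-72810042) and of Snrpn and Snurf (chr7:60004707-60005006), as examples of imprinted windows with at least 2 matches, on the plus strand, 5′ to 3′. Capitals mark the 6 letters on either strand.
Peg13: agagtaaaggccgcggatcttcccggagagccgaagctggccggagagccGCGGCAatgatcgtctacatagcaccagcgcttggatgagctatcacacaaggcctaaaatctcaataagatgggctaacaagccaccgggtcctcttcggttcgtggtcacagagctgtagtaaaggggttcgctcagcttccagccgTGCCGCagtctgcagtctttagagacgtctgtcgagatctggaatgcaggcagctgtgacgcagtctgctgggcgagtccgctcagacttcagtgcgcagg
Snrpn and Snurf: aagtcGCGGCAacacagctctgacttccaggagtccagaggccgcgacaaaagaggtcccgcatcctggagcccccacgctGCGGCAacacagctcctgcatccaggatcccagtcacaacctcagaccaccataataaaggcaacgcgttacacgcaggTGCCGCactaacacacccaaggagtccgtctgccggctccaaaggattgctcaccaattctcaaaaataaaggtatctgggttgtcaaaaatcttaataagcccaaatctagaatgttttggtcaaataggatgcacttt

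The regions of Airn, Gpi1, Vcpkmt and Rere and a Hox region are shown, the last after its values were seen, as examples of an imprinted promoter (Airn), of regions beside unmethylated sequence (Gpi1 and Vcpkmt), of a region with a copy elsewhere (Rere) and of a developmental cluster. The Hox region lies in an intron within the gene models of Hoxa3 and Hoxa4 (chr6:52191103-52191147), has 7 cytosines, and stood at 52.5 and 55.8% in 344SQP and 44.0 and 57.5% in 344SQR. The region of Rere is chr4:150315455-150315504, and the other coordinates are given above. All are on the plus strand, 5′ to 3′, and capitals mark the CpGs with at least 1 strand intermediate in all 4 tumors. The capitals lie close together in Rere and apart in Airn, where 7 of the 10 CpGs are marked and the others lie in the stretch between.
Airn: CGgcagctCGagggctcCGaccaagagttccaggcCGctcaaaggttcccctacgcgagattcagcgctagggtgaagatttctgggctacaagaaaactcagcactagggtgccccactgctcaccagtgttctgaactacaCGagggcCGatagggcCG
Gpi1: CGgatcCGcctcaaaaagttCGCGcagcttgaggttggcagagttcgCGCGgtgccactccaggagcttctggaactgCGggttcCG
Vcpkmt: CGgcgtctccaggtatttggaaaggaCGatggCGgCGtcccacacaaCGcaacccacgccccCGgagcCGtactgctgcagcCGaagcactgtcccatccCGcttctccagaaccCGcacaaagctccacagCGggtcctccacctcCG
Rere: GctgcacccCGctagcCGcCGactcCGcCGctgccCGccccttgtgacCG
Hoxa3 and Hoxa4: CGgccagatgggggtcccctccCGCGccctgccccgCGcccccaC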

How the data were processed

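The authors trimmed reads with Trim Galore 0.4.1 and cutadapt 1.9.1, mapped them to mm10 with Bismark and Bowtie 1.1.2 and called methylation, per the submitters' processing notes. The coverage of each CpG cytosine was deposited as a count of reads. The deposited percent of methylated reads was used as given, and methylated reads were coverage times percent, rounded. Members and lists were chosen with earlier results of these data known. Lines and tumor numbers came from the labels.

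Genes came from GENCODE M21. Named were the largest region of each imprinted locus (the lower start in ties), the 15 largest outside, the 10 largest outside near a start site, the 3 largest differences each way and the 5 with the highest coverage, plus those marked as named after their values were seen. Per-site likelihood ratio tests (p not below 2.2e-16) were combined by signed Stouffer z scores and adjusted by Benjamini-Hochberg over all 70734 regions. edgeR 4.0.16 was fitted to methylated and unmethylated reads per region with an effect for each tumor. Copies were searched with blastn 2.17.0 on regions widened to at least 100 bp. The copy search and the limits on relative coverage were chosen after seeing the data. Tests were also run on simulated reads. Python 3.11.15 and R 4.3.3 were used. The methods give a pair of mice for each line, so the tumors of a line were taken as those of separate mice.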

Additional observations from a re-analysis of the deposited data

Results flagged for a closer look

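Chromosome X was not part of the autosomal rule. Applied to its 22535 qualified cytosines, the same band gave 281 intermediate cytosines (1.25%) in 24 regions. The mean level of the qualified cytosines of chromosome X was 48.5 and 44.7% in 344SQP tumors 1 and 2 and 45.2 and 37.9% in 344SQR tumors 1 and 2. No comparison above used these methylation levels.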

How the results depend on the processing

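The width of the band moved the number of regions most, and the number called between the lines depended on the band and on the test. With 30 to 70% there were 1853 regions, 1816 outside imprinted loci and 806 called between the lines, and with 40 to 60% there were 45, 38 and 18. At least 5 cytosines a region left 100, 88 and 43. With both strands of a CpG merged, 258 regions were found, 240 of them outside. Leaving out 1 tumor gave 864 to 1628 regions, 835 to 1591 outside and 374 to 583 called, since fewer tumors had to lie in the band. Coverage minimums of 10 and 50, the coverage cap, joining within 100 or 500 bp, a reach of 5 or 100 kb, an FDR of 0.01 and, chosen after seeing the data, removal of regions over 3 times the median coverage kept each count they bear on within 1.5 times. edgeR called 0 regions in place of 139 (0 with an unadjusted p under 0.05, against 17.0% of all regions). The tumors share only a number between the lines, and same-numbered tumors deviated together (r = 0.624 over the 388 regions and 0.651 over all 70734). With the replicate block edgeR called 1 region (2 with an unadjusted p under 0.05). Over all 70734 regions it called 15450 with the block (24108 with an unadjusted p under 0.05) and 85 without. A Mantel-Haenszel test with the replicate block called 135 of the 388. Its share over all 70734 regions is not given here, so nothing is read from this count about the 388. The share of cytosines in the band in the left-out tumor averaged 49.7% and ran from 36.9% (band of 40 to 60%) to 62.3% (band of 30 to 70%). Over all qualified cytosines of their span, 26 of 32 named regions moved by less than the spread between tumors. Levels of single cytosines are coarse at 20 reads.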
